A study of Mus musculus with 24 samples.

Results

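The genes studied here lie on both sides of Atxn2 on mouse chromosome 5. They are 59 named neighbours, taken with every probe set of the array whose annotation carries their symbol (Kmt5a also under its older symbol Setd8, and the probe set 1443378_PM_s_at counted as Adam1a). Of the 59 genes, 53 were measured by 104 probe sets, out of 17097 genes and 45037 probe sets tested in the whole series, and 6 (Acad10, Sds, Ksr2, Suds3, Coq5 and Rnf10) had no probe set under their name. A single probe set stood for 21 of the measured genes, and 32 had 2 or more. In gene order 36 of them came before Atxn2 and 17 after it, within a stretch that held 131 measured genes in all.

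The 24 arrays came from cerebellum, brainstem and liver of 4 CAG42 mice and 4 wild-type (WT) mice per tissue, labelled as Atxn2 Knock-In and wild type and killed at an age of 18 months. The CAG42 mice were homozygous for an Atxn2 allele in which 42 CAG units stood in place of the single CAG of murine exon 1. The allele was targeted in embryonic stem cells of another mouse strain, its neomycin cassette was removed by Flp recombinase, and the line was crossed back to C57BL/6 for at least 8 generations, with WT littermates as controls. Every CAG42 mouse therefore shared the expanded repeat, the recombination site that Flp leaves and any loxP sequence of the targeting vector. It also shared any stem cell DNA still linked to Atxn2, and these cannot be told apart in a comparison with WT. The sex of the mice was not given in the sources used here, and the labels do not say whether the 3 tissues with the same number came from one animal.

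Genes that sit close together on a chromosome are passed on together, so a stretch around a targeted gene can travel with the targeted allele through backcrossing. The stretch around Atxn2 holds genes of unrelated function. Among them are a metalloprotease pair known for its role in sperm, chromatin enzymes, kinases and their regulators. Others encode mitochondrial enzymes and proteins of synapses and of the endoplasmic reticulum. Long noncoding RNA genes often start back to back with a protein-coding gene from a shared CpG-rich region, and A930024E05Rik and Kdm2b are such a pair.

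The promoter windows of 3 genes are shown because their genes carry the brain results below or, for Adam1b, because it is the closest relative of one of them. Each window runs 250 bases before to 50 bases after the annotated start, 5′ to 3′ on the strand of the gene, as given by RefSeq on GRCm38.p6, and capitals mark CpG dinucleotides.
A930024E05Rik, chr5:122989104-122989403, plus strand: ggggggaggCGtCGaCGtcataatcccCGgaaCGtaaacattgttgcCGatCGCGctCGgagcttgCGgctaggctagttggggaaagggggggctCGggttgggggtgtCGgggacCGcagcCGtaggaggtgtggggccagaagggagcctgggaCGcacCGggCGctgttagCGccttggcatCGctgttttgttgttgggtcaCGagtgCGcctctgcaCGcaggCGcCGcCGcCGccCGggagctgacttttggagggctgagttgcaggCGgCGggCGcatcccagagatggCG
Adam1a, chr5:121521646-121521945, minus strand: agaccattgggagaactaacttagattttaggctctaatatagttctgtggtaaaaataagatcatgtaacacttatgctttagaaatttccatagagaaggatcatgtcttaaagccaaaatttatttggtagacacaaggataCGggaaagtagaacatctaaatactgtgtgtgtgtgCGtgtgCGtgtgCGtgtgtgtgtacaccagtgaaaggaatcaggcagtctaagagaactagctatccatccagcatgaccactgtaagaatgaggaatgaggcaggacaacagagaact
Adam1b, chr5:121503386-121503685, minus strand: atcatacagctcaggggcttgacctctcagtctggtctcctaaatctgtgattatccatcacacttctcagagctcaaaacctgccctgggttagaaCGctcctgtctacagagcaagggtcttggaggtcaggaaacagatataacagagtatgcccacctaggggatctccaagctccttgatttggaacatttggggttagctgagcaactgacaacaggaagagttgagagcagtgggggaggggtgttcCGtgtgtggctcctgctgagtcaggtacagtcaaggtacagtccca

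The A930024E05Rik window held 31 CpG dinucleotides, a number reached by 10.6% of the 32851 windows of the RefSeq table, whose median was 7. The median over the 60 windows of the genes studied here was 29, so this window was near the middle of its neighbours. The Adam1a window held 4 and the Adam1b window 2, numbers reached by 68.6% and 85.9% of the windows. The searched motif was CG, which reads the same on both strands. One of the 4 Kdm2b start sites lay 255 bases from the A930024E05Rik start on the opposite strand, and the windows of both genes shared 246 bases with 27 CpG dinucleotides. Of the 59 genes, 47 had a window in that table.

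Arrays of the same group correlated at 0.992 or more in the 4 brain groups and at 0.986 or more in CAG42 liver, but only at 0.954 or more in WT liver. The group means of cerebellum, brainstem and hepatocyte markers were highest in the tissue of that label in every group. The mean of the 6 measured cerebellum markers was 11.57 in WT cerebellum, 7.86 in WT brainstem and 3.82 in WT liver. Whether the brainstem samples held cerebellar tissue was not tested. The 5 probe sets of Atxn2 itself had changes of -0.13 to 0.08 in cerebellum, -0.20 to 0.06 in brainstem and -0.32 to 0.01 in liver, and the lowest adjusted p among them was 0.325, in liver. They measure the level of the transcript and not the repeat, so they check neither the genotype nor its label. Unless stated otherwise, values are log2 RMA values per mouse, changes are CAG42 minus WT on that log2 scale with their standard error (SE), and p-values are from limma with Benjamini-Hochberg adjustment over all 45037 probe sets. A probe set was called where the adjusted p was under 0.05. Tissue was measured as a whole, so fewer cells of a type and less RNA per cell cannot be told apart.

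In cerebellum 3 of the 104 probe sets were called, all lower in CAG42 mice, beside 0.0444% of all probe sets called and 0.0355% called lower. They belonged to Adam1a and A930024E05Rik. Groups that did not overlap were more frequent: in 24 member probe sets of 19 genes (23.1%) every CAG42 mouse was above or every CAG42 mouse below all WT mice, against 3.94% of all probe sets. Of these 24, 8 were higher and 16 lower in CAG42 mice, against 1.71% and 2.23% of all probe sets in these directions. Among the probe sets of the 78 other measured genes of the stretch, Atxn2 included, 12.6% had groups apart. Of the same probe sets 2.96% were called, beside 2.88% of the member probe sets. The median change over the 104 was -0.03, beside -0.01 over all probe sets, so the changes of the members lay on both sides of a centre close to that of the array.

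In brainstem limma called no member probe set, beside 0.0155% of all probe sets, while 17 had an unadjusted p under 0.05, as did 4.17% of all probe sets. Groups did not overlap in 20 probe sets of 17 genes (19.2%, against 3.7% of all probe sets). Among the probe sets of the 78 other genes of the stretch, 9.63% had groups apart and 1.48% were called. Of the 20 member probe sets, 5 were higher and 15 lower in CAG42 mice, against 1.57% and 2.14% of all probe sets. In 8 of them, of 7 genes, the CAG42 mice stood apart from WT in the same direction in cerebellum as well, namely both Adam1a probe sets, Clip1, Diablo, Erp29 and Trafd1 below WT, and Anapc5 and Kmt5a above WT. How many of all probe sets stood apart the same way in both regions was not counted, so these 8 have no array share beside them. In liver 2 probe sets were called, those of Kdm2b and Kmt5a, both higher in CAG42 mice, beside 0.147% of all probe sets called and 0.0933% called higher. Groups did not overlap in 7 probe sets of 6 genes (6.73%, against 2.76% of all probe sets). Of these 7, 5 were higher and 2 lower in CAG42 mice, against 0.95% and 1.81% of all probe sets. Among the probe sets of the 78 other genes of the stretch, 7.41% had groups apart in liver and 1.48% were called. The share of members with groups apart in liver was thus no higher than that of the other genes of the stretch.

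**Figure D1:**
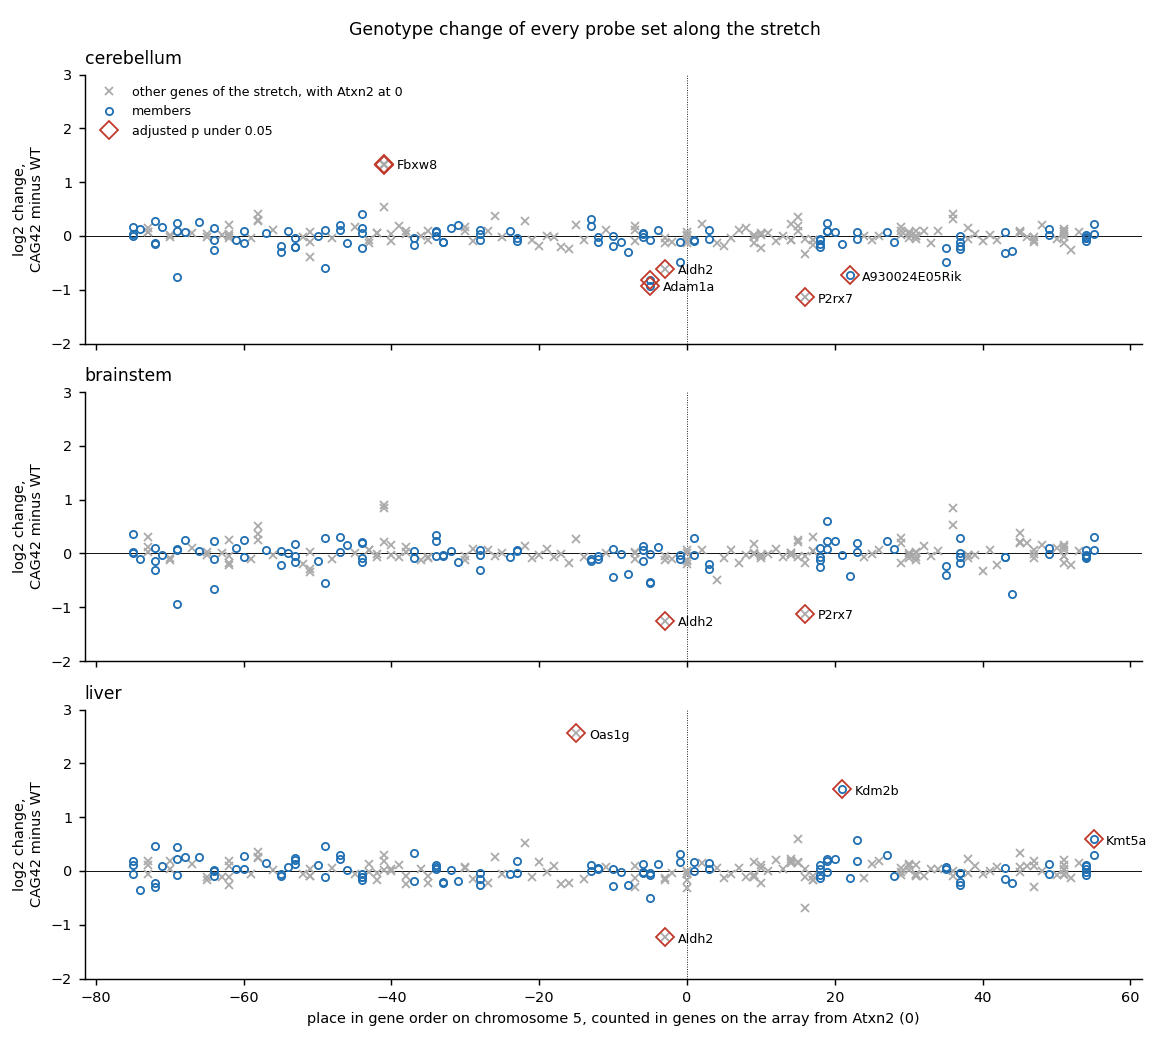
Change of every probe set of the stretch on the log2 scale, CAG42 minus WT (vertical axis), against the place of its gene counted in measured genes from Atxn2 at 0 (horizontal axis), for cerebellum, brainstem and liver. Circles are the 104 member probe sets, crosses the 135 of the other genes, and diamonds mark an adjusted p under 0.05: the called members are Adam1a and A930024E05Rik below 0 in cerebellum, and Kdm2b and Kmt5a above 0 in liver. The other named diamonds (Fbxw8, Aldh2, P2rx7 and Oas1g) are genes of the stretch that are no members.

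Along the gene order, the members within 10 places before Atxn2 were 7 genes with 13 probe sets. Of these 13, 5 had all CAG42 mice below all WT mice in cerebellum and 5 in brainstem, from 4 genes in each region. None lay the other way there and none was apart in liver. Over all probe sets of the array, 2.23% lay entirely below and 1.71% entirely above WT in cerebellum, 2.14% below and 1.57% above in brainstem, and 1.81% below and 0.95% above in liver. Among the 20 probe sets 11 to 40 places after Atxn2, 8 lay entirely below and 1 entirely above WT in cerebellum, from only 5 genes. In brainstem 2 of the 20 lay below and 2 above, and in liver 3 above. Probe sets of 1 gene were read on the same arrays and are not separate neighbours. The 36 probe sets more than 40 places before Atxn2 gave 1 below and 4 above in cerebellum, 5 below and 2 above in brainstem, and 2 below and 1 above in liver. Of the 19 probe sets 11 to 40 places before Atxn2, 1 lay below and 1 above in cerebellum, 1 below in brainstem and none apart in liver. Of the 4 probe sets 1 to 10 places after it, 1 lay above in cerebellum and 1 below in brainstem. Of the 12 more than 40 places after it, 1 lay below and 1 above in cerebellum and likewise in brainstem, and 1 above in liver. The plot of changes in gene order shows few called members, Adam1a and A930024E05Rik in cerebellum and Kdm2b and Kmt5a in liver. Each stood next to members not called in that tissue.

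Adam1a, 5 places before Atxn2, encodes the alpha subunit of fertilin, a disintegrin and metalloprotease known for its role in sperm. Its probe set 1443378_PM_s_at read 6.13, 6.41, 6.35 and 6.11 in the cerebella of CAG42 mice, against 7.20, 7.10, 6.99 and 6.998 in those of WT mice. The second probe set, 1427790_PM_at, read 6.11, 6.48, 6.54 and 6.42 in CAG42 cerebella, against 7.33, 7.29, 7.38 and 7.26 in WT cerebella. No mouse of one genotype reached the range of the other in either probe set. In the naming of these arrays, s_at marks probes that several transcripts share, so a part of its signal from another transcript cannot be told apart. The levels in CAG42 cerebellum were 0.565 of WT for 1443378_PM_s_at (change -0.82, SE 0.11, adjusted p = 0.00189) and 0.525 of WT for 1427790_PM_at (change -0.93, SE 0.16, adjusted p = 0.0225). The first call held without any single cerebellar array, and the second was lost without each of them except CAG42 cerebellum replicate 3, with adjusted p up to 0.147.

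In brainstem 1443378_PM_s_at read 5.55, 5.56, 5.54 and 5.56 in CAG42 mice, against 6.26, 6.01, 6.11 and 6.05 in WT mice. The groups were again apart, but the change of -0.55 (SE 0.11) was not called (adjusted p = 0.206). Averaged over cerebellum and brainstem, with 0.0822% of all probe sets called and 0.0622% called lower, the change was -0.69 (SE 0.08, adjusted p = 7.90e-05) for 1443378_PM_s_at and -0.73 (SE 0.11, adjusted p = 0.00373) for 1427790_PM_at. In liver the changes were -0.07 (SE 0.11) for 1443378_PM_s_at and -0.50 (SE 0.16) for 1427790_PM_at, neither called.

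The remaining Adam1a probe set, 1427791_PM_a_at, read between 2.52 and 3.31 on every array, near the bottom of the array's scale, and its change in cerebellum was -0.08 (SE 0.10). Its change differed from that of 1427790_PM_at by 0.85 (SE 0.15), which missed the threshold over all 11802 probe set pairs of the array (adjusted p = 0.0587). The mean of the 3 Adam1a probe sets was 5.13 ± 0.16 in CAG42 cerebellum and 5.74 ± 0.05 in WT cerebellum (SD, n = 4 each). A two-sided exact permutation test gave p = 0.0286, the smallest that 4 against 4 mice can give. In cerebellum 6 of the 30 named genes reached it, but these were named from the same data, partly by low p or groups apart. The p and the count therefore lend no separate support, and the share over all genes was not counted. Adam1b, a second fertilin alpha gene and the neighbour of Adam1a in gene order, had 3 probe sets with changes between -0.15 and 0.13 over the 3 tissues, none of them called. All Adam1b values lay between 2.56 and 4.57, so these probe sets were dim in every tissue.

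A930024E05Rik, the noncoding gene 22 places after Atxn2, had 1 probe set. It read 6.57, 6.71, 6.62 and 6.60 in CAG42 cerebella, against 7.32, 7.21, 7.53 and 7.37 in WT cerebella. The groups lay apart by more than the whole spread within either of them, and the CAG42 level was 0.603 of WT (change -0.73, SE 0.12, adjusted p = 0.00956). The call was lost without CAG42 cerebellum replicate 1 or without WT cerebellum replicate 3, with changes of -0.71 (adjusted p = 0.0536) and -0.67 (adjusted p = 0.0651).

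In brainstem it read 4.84, 4.93, 5.06 and 4.84 in CAG42 mice, against 5.50, 5.38, 5.05 and 5.41 in WT mice. WT brainstem replicate 3 lay among the CAG42 values, and the change of -0.42 (SE 0.12) was not called (adjusted p = 0.910). The brain average was called at -0.57 (SE 0.08, adjusted p = 0.00148). In liver, where it was dimmest, the change was -0.14 (SE 0.12, adjusted p = 0.823).

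Kdm2b lies 21 places after Atxn2, back to back with A930024E05Rik, and encodes a histone lysine demethylase that binds CpG-rich DNA and brings Polycomb complexes to it. Its only probe set read 7.30, 7.42, 7.52 and 7.09 in CAG42 livers, against 6.37, 5.90, 5.60 and 5.41 in WT livers. All CAG42 livers stood above all WT livers, and the WT livers were spread over a wider range than the CAG42 livers. The level in CAG42 liver was 2.86 times that of WT liver (change 1.52, SE 0.14, adjusted p = 2.04e-06), and the call held without any single liver array. Fitted on the 8 liver arrays alone, with the spread of liver only, the same change was not called (adjusted p = 0.488), and neither was any other probe set of the array.

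In brain Kdm2b showed no such difference. It read 7.89, 7.87, 7.94 and 7.74 in CAG42 cerebella, against 8.06, 7.91, 7.97 and 8.07 in WT cerebella, and the change in brainstem was -0.03 (SE 0.14). The genotype change averaged over both brain regions minus that of liver was -1.60 (SE 0.17, adjusted p = 7.14e-05). This test used 1 spread over all tissues. The SD of Kdm2b was 0.19 in CAG42 liver and 0.42 in WT liver, against 0.07 to 0.10 in the brain groups. The SE therefore does not reflect the wider spread in liver. Kdm2b was the only member called for this difference between tissues, beside 0.0111% of all probe sets called and 0.00888% called lower. For cerebellum minus brainstem limma called no member, beside 0.00222% of all probe sets, and 3 had an unadjusted p under 0.05 (1.68% of all probe sets). Kdm2b was thus called higher in liver and A930024E05Rik, whose start lies 255 bases away on the opposite strand, lower in cerebellum.

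**Figure D2:**
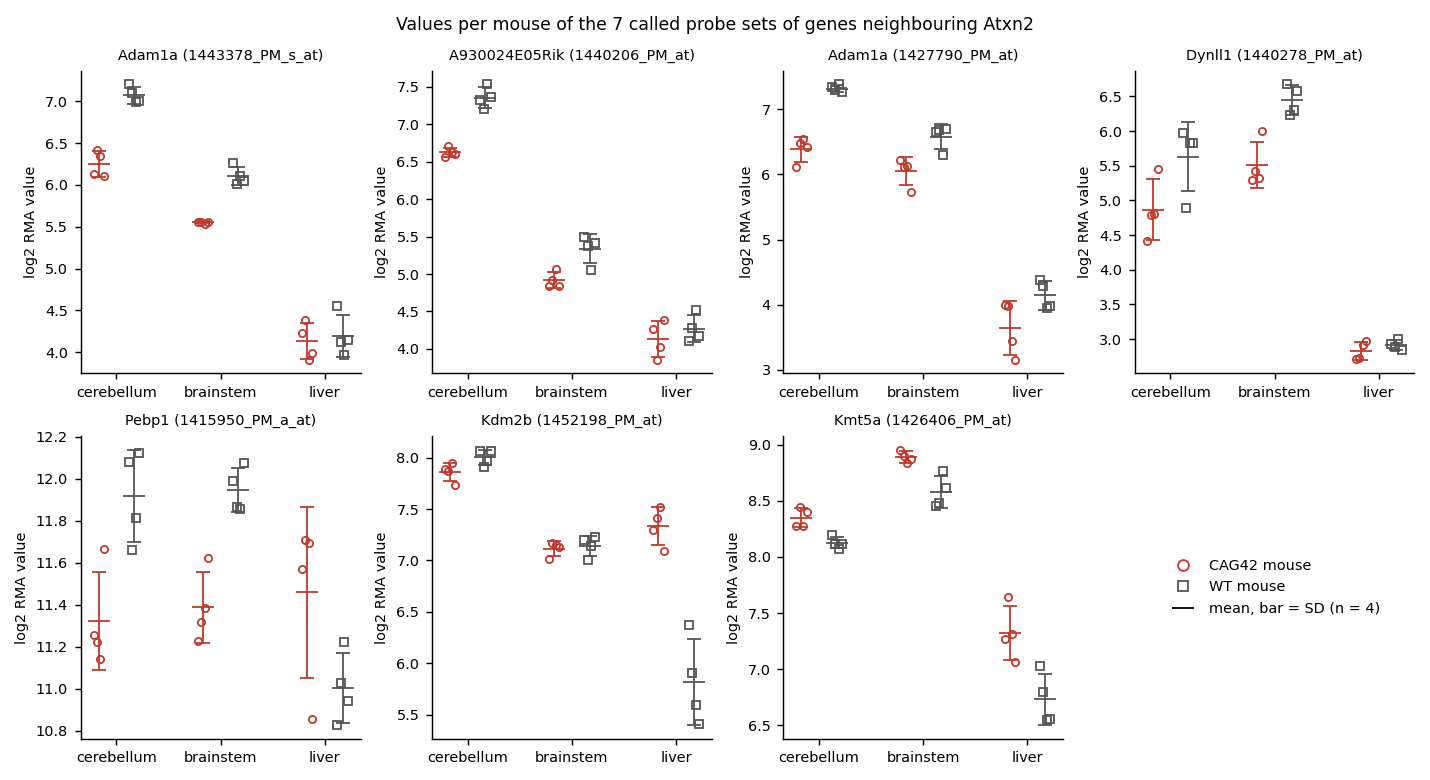
Log2 RMA value of each mouse (vertical axis) in cerebellum, brainstem and liver (horizontal axis) for the 7 member probe sets called in a tissue or in the brain average. Circles are CAG42 mice, squares WT mice, and the crossbars give mean and SD of 4 mice: both Adam1a probe sets and A930024E05Rik lie below WT in cerebellum, and all 4 CAG42 livers lie above all 4 WT livers for Kmt5a and Kdm2b.

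Kmt5a, the last member at 55 places after Atxn2, encodes a histone methyltransferase of the cell cycle. Its probe set 1426406_PM_at read 7.27, 7.65, 7.32 and 7.06 in CAG42 livers, against 7.03, 6.79, 6.55 and 6.55 in WT livers. Groups were apart by the narrow margin between CAG42 liver replicate 4 and WT liver replicate 1. The CAG42 level was 1.51 times WT (change 0.59, SE 0.11, adjusted p = 0.0242). The call was lost without CAG42 liver replicate 2 or 3 or WT liver replicate 3 or 4 (adjusted p up to 0.0891) and in the fit of liver alone.

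The same probe set had all CAG42 mice above all WT mice in both brain regions. It read 8.28, 8.44, 8.28 and 8.40 in CAG42 cerebella, against 8.19, 8.11, 8.07 and 8.12 in WT cerebella, and 8.96, 8.90, 8.83 and 8.87 in CAG42 brainstems, against 8.45, 8.48, 8.76 and 8.61 in WT brainstems. These changes, 0.22 (SE 0.11) in cerebellum and 0.31 (SE 0.11) in brainstem, were not called. The other Kmt5a probe set, 1460687_PM_at, had changes of 0.03 in cerebellum, 0.07 in brainstem and 0.30 in liver (SE 0.10 each), none called. The difference between the changes of both probe sets missed the threshold in every tissue (-0.29, SE 0.11, adjusted p = 0.378 in liver).

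The count of called members in liver depended on 1 array. Without WT liver replicate 1, 18 member probe sets (17.3%) were called, 17 higher and 1 lower in CAG42 mice, but so were 2878 probe sets of the whole array (6.39%). With that array in the fit, uncalled members with low p in liver included Orai1, the pore subunit of a calcium channel opened when stores are empty, and Mlec, a lectin of the endoplasmic reticulum. Orai1 1424990_PM_at read 6.27, 6.35, 6.38 and 6.50 in CAG42 livers, against 6.22, 5.86, 5.56 and 5.58 in WT livers (change 0.57, SE 0.14, adjusted p = 0.148, and 0.00456 without WT liver replicate 1). Acads, a mitochondrial acyl-CoA dehydrogenase, read 8.60, 8.59, 8.54 and 8.46 in CAG42 livers, against 9.20, 8.93, 8.68 and 8.77 in WT livers (change -0.35, SE 0.11, adjusted p = 0.291). Both genes kept the groups apart, in opposite directions.

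Averaging the cerebellar and brainstem changes brought 1 probe set each of 2 further genes past the threshold. In all, 5 member probe sets were then called, all lower in CAG42 mice, beside 0.0822% of all probe sets called and 0.0622% called lower. Dynll1 encodes a light chain of dynein. Its probe set 1440278_PM_at read 4.41, 4.78, 4.81 and 5.46 in CAG42 cerebella, against 5.97, 4.89, 5.83 and 5.82 in WT cerebella, and 5.29, 5.42, 5.32 and 5.999 in CAG42 brainstems, against 6.67, 6.23, 6.30 and 6.58 in WT brainstems. WT cerebellum replicate 2 lay inside the CAG42 range, and the brainstem groups were apart. The average change was -0.85 (SE 0.15, adjusted p = 0.0157), and the call was lost without CAG42 brainstem replicate 2 or WT cerebellum replicate 1 or 4 (adjusted p up to 0.0519) and with brain arrays alone (adjusted p = 0.0979). The other Dynll1 probe sets, both brighter, had changes of 0.07 to 0.23 in the brain regions, opposite in sign.

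Pebp1 encodes an inhibitor of Raf kinase signalling. The values of 1415950_PM_a_at were 11.26, 11.22, 11.14 and 11.66 in CAG42 cerebella, against 12.08, 11.66, 11.81 and 12.12 in WT cerebella, and 11.23, 11.32, 11.38 and 11.62 in CAG42 brainstems, against 11.99, 11.86, 11.85 and 12.08 in WT brainstems. The brainstem groups were apart, while in cerebellum 1 CAG42 mouse met the lowest WT mouse. The average change was -0.58 (SE 0.11, adjusted p = 0.0417). Taking arrays of the same genotype and number as one block raised the adjusted p to 0.0732, and 13 of the 16 fits without 1 brain array lost the call. It held only without CAG42 cerebellum replicate 4, CAG42 brainstem replicate 4 or WT cerebellum replicate 2, and the adjusted p over the 16 fits ranged between 0.0118 and 0.123. In liver its change was 0.45 (SE 0.16, adjusted p = 0.368), and the difference between brain average and liver, -1.03 (SE 0.19), missed the threshold (adjusted p = 0.0725). The other Pebp1 probe set, 1453107_PM_s_at, was dim in brain (group means of 4.11 to 4.65) and had changes of 0.11 in cerebellum and 0.29 in brainstem (SE 0.33 each), opposite in sign to those of the first. The difference between the changes of both probe sets was 0.71 (SE 0.35) in cerebellum and 0.84 (SE 0.35) in brainstem, neither called over all pairs (adjusted p = 0.956 in brainstem and higher in cerebellum).

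Probe sets of one gene could be compared for 32 members, in 51 pairs of a further probe set against the brightest. The changes of both probe sets had the same sign in 36 pairs (70.6%) in cerebellum, 30 (58.8%) in brainstem and 32 (62.7%) in liver, against 58.8%, 54.6% and 56.7% of all 11802 pairs. A difference between the genotype changes of a pair was called for 2 member pairs in liver, beside 0.161% of all pairs, and for none in cerebellum (0% of all pairs, with 7 member pairs and 2.83% of all pairs at an unadjusted p under 0.05) or brainstem (0.0169% of all pairs, with 13 member pairs and 5.04% of all pairs at an unadjusted p under 0.05).

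Both called pairs were those of Mlec. Its brightest probe set, 1448569_PM_at, read 6.86, 7.30, 6.77 and 7.09 in CAG42 livers, against 6.68, 6.35, 6.70 and 6.42 in WT livers. Probe set 1436508_PM_at read 3.10, 3.27, 3.25 and 3.33 in CAG42 livers, against 3.70, 3.45, 3.39 and 3.59 in WT livers. Groups were apart in both, in opposite directions. The change of 1436508_PM_at minus that of 1448569_PM_at was -0.76 (SE 0.14, adjusted p = 0.0205), and that of 1436509_PM_at minus that of 1448569_PM_at was -0.69 (SE 0.12, adjusted p = 0.0195). The 3 changes themselves were not called (0.47, -0.29 and -0.22), and the pair calls were both lost without CAG42 liver replicate 2, CAG42 liver replicate 4 or WT liver replicate 4, and in liver alone.

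**Figure D3:**
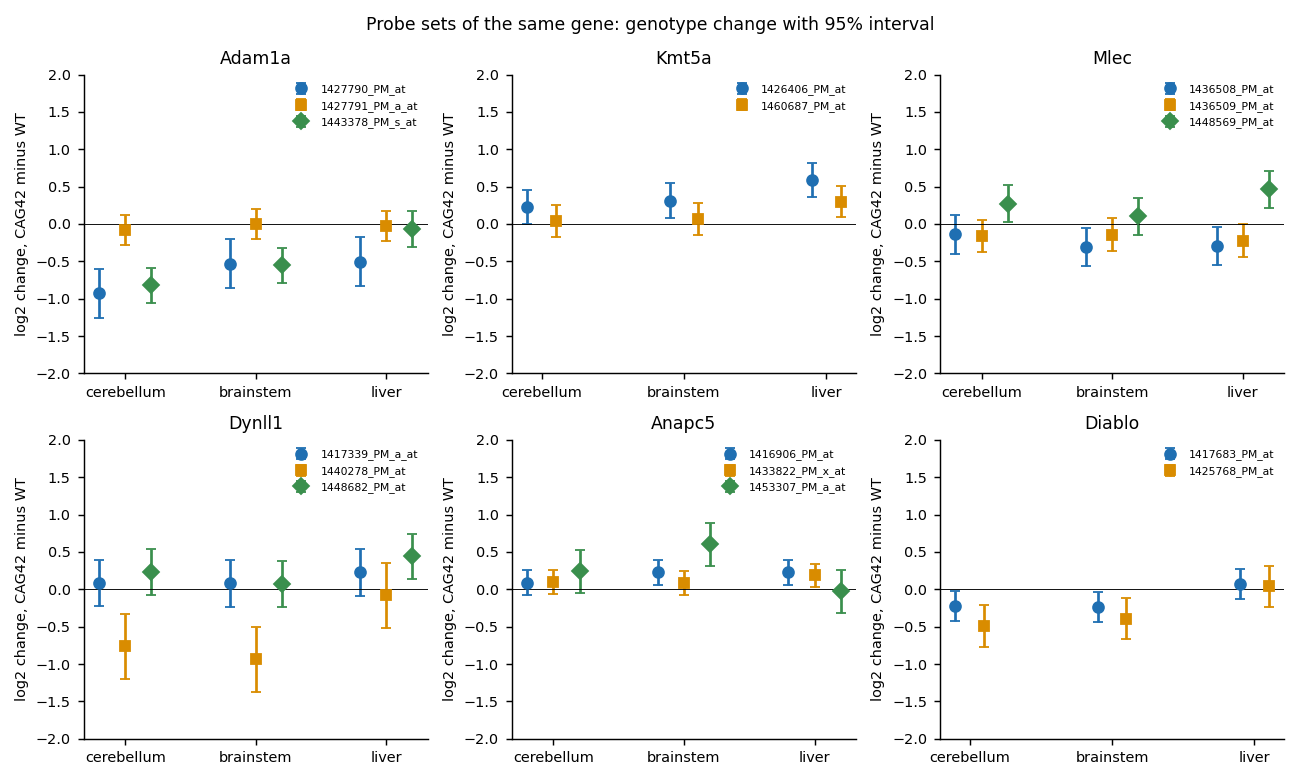
Change on the log2 scale, CAG42 minus WT, with its 95% interval (vertical axis) in cerebellum, brainstem and liver (horizontal axis) for each probe set of Adam1a, Kmt5a, Mlec, Dynll1, Anapc5 and Diablo. Marks of one colour belong to 1 probe set: Mlec 1448569_PM_at lies above the other 2 in liver (0.47, against -0.29 and -0.22), and Dynll1 1440278_PM_at lies below the other 2 in both brain regions.

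Dynll1 gave the widest gap between probe sets in brain. The change of 1440278_PM_at was -0.76 in cerebellum and -0.94 in brainstem, and that of the bright probe set 1448682_PM_at was 0.23 in cerebellum and 0.07 in brainstem. The differences, -0.995 (SE 0.22, adjusted p = 0.694) in cerebellum and -1.01 (SE 0.22, adjusted p = 0.358) in brainstem, were not called over all pairs. Diablo, a mitochondrial protein that counters inhibitors of apoptosis, had both probe sets on the same side, with changes of -0.23 (SE 0.10) and -0.49 (SE 0.13) in cerebellum and all CAG42 below all WT mice in both. Probe set 1425768_PM_at of Diablo read 3.89, 3.95, 4.16 and 4.17 in CAG42 cerebella, against 4.67, 4.67, 4.46 and 4.34 in WT cerebella, close to the lower end of the scale and with adjusted p = 0.684.

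Camkk2, Clip1 and Anapc5 also had 2 or more probe sets with groups apart in one tissue and one direction, as had Mlec, whose 2 dimmer probe sets lay below WT in brainstem. This trait was itself a rule by which genes were named, so it lends no separate support. How many genes of the whole array have it was not counted. Camkk2, an upstream kinase of the calmodulin kinases, had 3 of its 4 below WT in cerebellum, with changes of -0.20, -0.16 and -0.08. Its brightest, 1424474_PM_a_at, read 10.11, 10.23, 10.20 and 10.14 in CAG42 cerebella, against 10.35, 10.35, 10.38 and 10.40 in WT cerebella (change -0.20, SE 0.13). Clip1, which binds growing microtubule ends, had 2 of its 4 below WT in cerebellum, with changes of -0.25 (SE 0.09) and -0.19 (SE 0.09). None of these changes was called.

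Anapc5, a subunit of the anaphase-promoting ubiquitin ligase, had 2 of 3 probe sets above WT in brainstem. Probe set 1453307_PM_a_at read 7.34, 7.36, 7.10 and 7.23 in CAG42 brainstems, against 6.65, 6.61, 6.42 and 6.95 in WT brainstems (change 0.60, SE 0.14, adjusted p = 0.456). It also lay above WT in cerebellum (change 0.24, SE 0.14) but not in liver (-0.03, SE 0.14). The brightest probe set, 1433822_PM_x_at, had changes of 0.10 in cerebellum, 0.09 in brainstem and 0.18 in liver (SE 0.08 each), and its groups were apart in liver.

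Other members of low p in brainstem were not called either. Ccdc62, a coiled-coil protein known from testis, read 3.53, 3.68, 3.78 and 3.62 in CAG42 brainstems, against 4.94, 4.50, 4.28 and 3.89 in WT brainstems (change -0.75, SE 0.16, adjusted p = 0.256, and 0.0146 without WT brainstem replicate 4). Msi1, an RNA-binding protein of neural progenitors, read 3.83, 4.16, 4.03 and 4.02 in CAG42 brainstems and 4.75, 4.56, 4.67 and 4.70 in WT brainstems with 1444306_PM_at (change -0.66, SE 0.14, adjusted p = 0.256). In both the groups were apart at a dim level. The brightest Msi1 probe set, 1452287_PM_at, had a change of -0.11 (SE 0.08) there.

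Erp29, a chaperone of the endoplasmic reticulum 8 places before Atxn2, was below WT in both brain regions at a bright level. It read 8.86, 8.86, 8.68 and 8.87 in CAG42 cerebella, against 9.08, 9.03, 9.22 and 9.14 in WT cerebella. In brainstem it read 8.25, 8.55, 8.56 and 8.49 in CAG42 mice, against 8.82, 8.79, 8.92 and 8.81 in WT mice. Its changes were -0.30 and -0.37 (SE 0.10 each), and the brain average of -0.34 (SE 0.07) missed the threshold (adjusted p = 0.0695). Trafd1, a zinc finger protein that dampens innate immune signalling, 2 places further from Atxn2, had changes of -0.19 in cerebellum and -0.43 in brainstem (SE 0.16 each) in 1428346_PM_at, with groups apart in both, and of 0.08 or less in size in its other probe set in every tissue.

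By role, the list of chromatin and transcription genes held Kdm2b and Kmt5a, higher in liver (2 of 12 probe sets). A930024E05Rik, lower in cerebellum, was placed in this list only as the noncoding neighbour of Kdm2b. The list had a median change of -0.03, -0.03 and 0.10 in cerebellum, brainstem and liver. The ADAM pair held the other 2 called in cerebellum (2 of 6 probe sets), both of Adam1a. Of the 18 probe sets of kinases, phosphatases and their regulators, none was called in a single tissue and 1, Pebp1, in the brain average. Among 16 probe sets for the endoplasmic reticulum, chaperones and cytoskeleton, none was called in a single tissue, with Dynll1 called in the brain average. Of these 16, 5 lay apart from WT in cerebellum, 5 in brainstem and 2 in liver, where the whole array had 3.94%, 3.7% and 2.76%. In the same order of tissues, the probe sets apart from WT were 3, 1 and 2 of the 12 of chromatin and transcription, 2, 3 and 0 of the 6 of the ADAM pair, and 5, 1 and 0 of the 18 of kinases and phosphatases.

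No member was called in a single tissue among synapse, channel and trafficking genes (18 probe sets), developmental transcription factors and neural regulators (13), ubiquitin ligases and partners (8), mitochondrial and metabolic genes (6) or genes of RNA, translation and replication (6). Of these lists, the probe sets apart from WT in cerebellum, brainstem and liver were 1, 2 and 1 of synapse, channel and trafficking genes, 1, 2 and 0 of developmental factors, 2, 3 and 1 of ubiquitin ligases, 3, 1 and 1 of mitochondrial genes and 2, 1 and 0 of RNA genes. Over the whole array, 3.94%, 3.7% and 2.76% of probe sets were apart in these tissues. The lists are short, and a count of 1 in the longer ones is near that share. Nos1, the neuronal nitric oxide synthase, had 1 of 4 probe sets above WT in cerebellum, 1422949_PM_at with 4.99, 4.91, 4.78 and 5.15 in CAG42 mice, against 4.73, 4.71, 4.33 and 4.45 in WT mice (change 0.40, SE 0.11, adjusted p = 0.788), while the changes of its 2 brightest probe sets were 0.15 and -0.23. Denr, a translation reinitiation factor, had a dim probe set at -0.31 (SE 0.09) and a bright one at 0.07 (SE 0.08) in cerebellum. The splicing factor Srsf9 had changes of 0.25 (SE 0.10) in brainstem and 0.26 (SE 0.10) in liver. The changes of Cit, a kinase of cell division, lay between -0.30 and 0.04, and those of the heart and limb factor Tbx5 between -0.22 and -0.03, over all tissues and probe sets.

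Markers of other cells were looked at in the same arrays. The mean level of the 7 choroid plexus genes measured (of 8) ranged over 6.97 to 7.48 in CAG42 cerebella and 5.66 to 7.44 in WT cerebella, and that of the 3 erythrocyte genes measured (of 6) over 9.85 to 10.4 in CAG42 cerebella and 9.27 to 10.3 in WT cerebella. The erythrocyte genes ranged over 10.2 to 11.1 in CAG42 brainstems and 9.58 to 10.8 in WT brainstems, and over 9.80 to 10.4 in CAG42 livers and 9.30 to 10.3 in WT livers. The median change over the choroid plexus genes was 0.64 in cerebellum (range -0.31, for Clic6, to 0.99), 0.17 in brainstem and -0.07 in liver. The erythrocyte genes had median changes of 0.62 in cerebellum, 0.57 in brainstem and 0.42 in liver, and each of the 3 was above 0 in every tissue. None of these genes was called in limma in any tissue, and their part in the changes of the members was not tested.

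In WT mice the members differed widely between tissues. Of the 104 probe sets, 41 were brightest in cerebellum, 32 in brainstem and 31 in liver, and 23 stayed under a group mean of 5 everywhere. Cerebellum against brainstem gave 55 called (52.9%, beside 47% of all probe sets), 33 higher and 22 lower in cerebellum (18.8% and 28.2% of all), or 37 and 16 after quantile normalization over all arrays. Cerebellum against liver gave 95 called (91.3%, beside 81.8%), 67 higher and 28 lower (44.4% and 37.3% of all), or 52 and 41 after that normalization. Brainstem against liver gave 92 called (88.5%, beside 80.8%), 58 higher and 34 lower (46.5% and 34.3% of all), or 46 and 44, with a median over all probe sets of 0.16 as deposited and -0.04 after it.

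**Figure D4:**
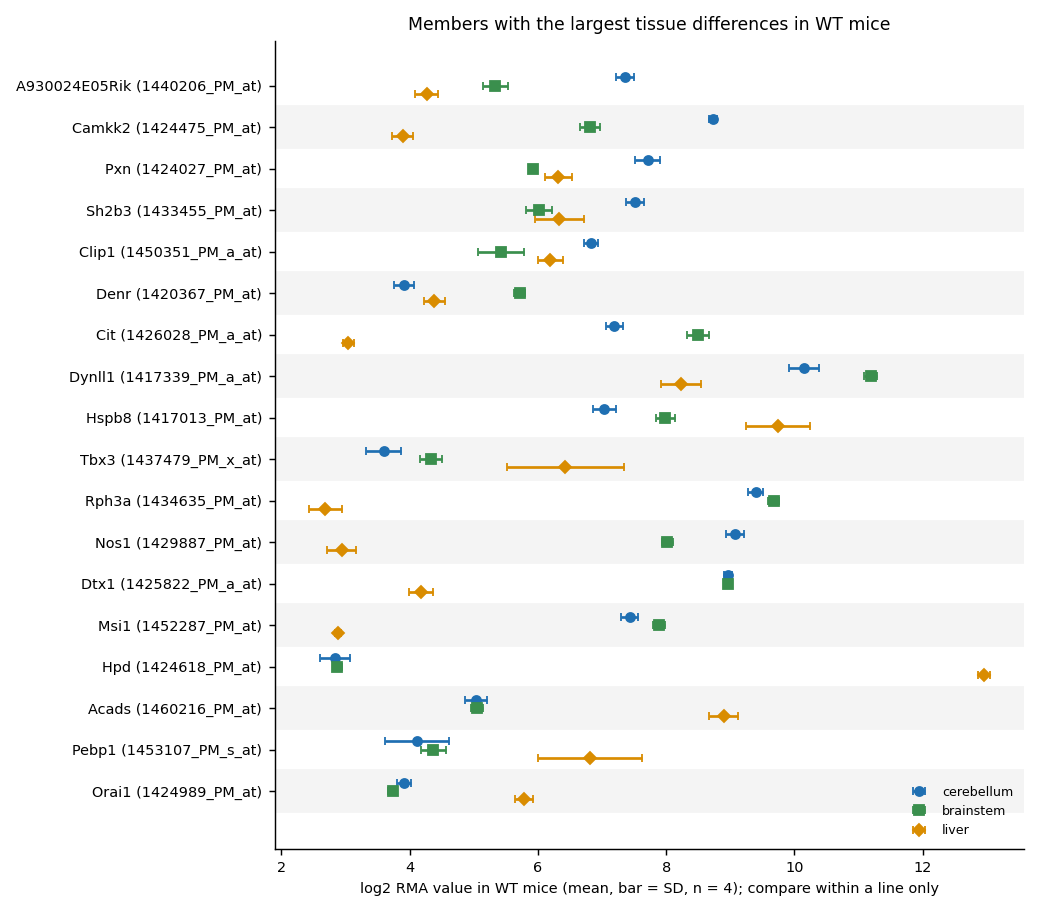
Mean log2 RMA value with SD in WT cerebellum, brainstem and liver (4 mice each, horizontal axis) for the members with the widest tissue differences, 1 probe set per line, to be compared within a line only. Hpd lies at 12.96 in liver and below 3 in both brain regions, and Rph3a at 2.68 in liver and above 9 in both brain regions.

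Hpd, an enzyme of tyrosine breakdown, was 10.12 lower in WT cerebellum than in WT liver and 10.09 lower in brainstem than in liver (SE 0.09 each). Acads (-3.86 and -3.85), the T-box factor Tbx3 (-3.51 and -2.87) and the small heat shock protein Hspb8 in cerebellum (-2.70) were also below their liver level, as was Orai1 1424989_PM_at in brainstem (-2.05). The dimmer Pebp1 probe set 1453107_PM_s_at belonged to these too (-2.70 and -2.44), while the bright one did not. Rph3a, a synaptic vesicle protein, was 6.71 and 6.99 above liver in WT cerebellum and brainstem, and Nos1 (6.14 and 5.08), Msi1 (4.55 and 5.01) and Dtx1, a regulator of Notch (4.79 and 4.78), came next with Camkk2 in cerebellum (4.83) and Cit in brainstem (5.45). All of these had adjusted p under 0.05.

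Between the brain regions of WT mice, A930024E05Rik had the largest excess in cerebellum of all members, 2.02 (SE 0.12, adjusted p = 7.16e-13), followed by Camkk2 (1.91), the focal adhesion protein Pxn (1.78), the adaptor Sh2b3 and Clip1 1450351_PM_a_at (1.40). Denr 1420367_PM_at (-1.80), Cit (-1.30), Dynll1 1417339_PM_a_at (-1.04) and Hspb8 (-0.95) were lower in cerebellum, and Tbx3 1437479_PM_x_at (-0.74) was not called (adjusted p = 0.0558). A930024E05Rik thus stood in the order cerebellum, brainstem, liver, with WT means of 7.36 ± 0.14, 5.33 ± 0.19 and 4.27 ± 0.18 (SD, n = 4 each), and brainstem above liver by 1.07 (SE 0.12, adjusted p = 1.11e-08).

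Adam1a 1443378_PM_s_at had the same order, at 7.07 ± 0.10 in WT cerebellum, 6.11 ± 0.11 in brainstem and 4.20 ± 0.25 in liver (SD, n = 4 each). Kdm2b was also highest in WT cerebellum, at 8.004 ± 0.07, then 7.14 ± 0.10 in brainstem and 5.82 ± 0.42 in liver (SD, n = 4 each), each step called. In CAG42 mice the liver value of Kdm2b was 7.33 ± 0.19, against 7.11 ± 0.07 in CAG42 brainstem (SD, n = 4 each). Kmt5a 1426406_PM_at was highest in WT brainstem, at 8.58 ± 0.14, then 8.12 ± 0.05 in cerebellum and 6.73 ± 0.23 in liver (SD, n = 4 each).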

How the data were processed

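Total RNA of cerebellum, brainstem and liver was hybridised by the authors to Affymetrix mouse expression arrays with perfect-match probe sets. The deposited values are log2 intensities per probe set that the authors background-corrected, normalised and summarised by RMA, with R 2.7.0 per the submitters' processing notes, and no version of RMA was given. The labels and the study's methods differ on the amount of RNA and the labelling kit, and the age of the mice comes from the methods only. Depth of reads does not apply, so the number of arrays limits the precision.

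From these values, 45037 probe sets were tested after 104 controls were left out. Linear models were fitted in limma 3.58.1 (R 4.3.3) with 1 mean for each tissue and genotype over all 24 arrays, so that each probe set had a single spread over all tissues, followed by the empirical Bayes step and Benjamini-Hochberg adjustment per comparison. The model was tested on simulated data, but the outcome is not given here, so it lends no support to the calls. Probe set pairs were fitted the same way on the difference of each further probe set of a gene to its brightest, and gene means were compared by a two-sided exact permutation test.

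Names came from the platform annotation, updated by gene ID through RefSeq, and 1443378_PM_s_at, absent from that annotation, was counted as Adam1a. Of the tested probe sets, 28899 had 1 gene, 551 several and 15587 none, the last 2 kinds staying unnamed. Gene order came from the RefSeq table.

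The genes, lists and tests were chosen with earlier results of these data known. Named were members called in any genotype contrast, the 10 of lowest p per tissue, members with several probe sets apart from WT in one tissue or with a called pair, 2 of lowest p per role, the 5 with the largest tissue differences in each direction, and Adam1a, Adam1b, A930024E05Rik, Kdm2b and Kmt5a.

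Replicates are separate arrays whose origin from separate animals is not stated for each label, so p-values measure the spread between these arrays. Arrays of the same genotype and number deviated together in cerebellum and brainstem (correlations of 0.224 to 0.331 in CAG42 and 0.262 to 0.375 in WT mice). The main fit took all arrays as independent, also in the brain average. A random block for genotype and number, fitted over all tissues, was therefore one alternative. Its consensus correlation of 0.0641 lay below those between cerebellum and brainstem, so it took up only a part of them. The other alternatives were a replicate block, array weights, each tissue fitted alone, quantile normalisation, a nested F test, dim probe sets left out and each array left out.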

Additional observations from a re-analysis of the deposited data

Results flagged for a closer look

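Values of 4 mice were looked at in 32 groups, those of the called probe sets in the brain regions and in the tissues where they were called, for a mouse far from the other 3, and chance would mark about 1 in 20 such groups. In WT brainstem, replicate 3 read 6.30 for Adam1a 1427790_PM_at, below the other WT mice (6.65, 6.68 and 6.70), and its gap to the nearest of them was 0.873 of the whole range of the group, above Dixon's limit for 4 values. In WT cerebellum, replicate 2 read 4.89 for Dynll1 1440278_PM_at, below the other WT mice (5.97, 5.83 and 5.82), with a gap of 0.860 of the range. The brain average without WT cerebellum replicate 2 stayed past the threshold for Dynll1.

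For Kdm2b the genotype change differed between tissues by its own test in limma. The change averaged over cerebellum and brainstem minus that in liver was -1.60 (SE 0.17, adjusted p = 7.14e-05), with all 4 CAG42 livers above all 4 WT livers and overlapping groups in both brain regions. That SE came from 1 spread over all tissues and does not reflect the wider spread of Kdm2b in liver. The liver change itself was not called in the fit of liver alone.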

How the results depend on the processing

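Over the alternatives run, no value turned its direction, and for the named probe sets 471 values stayed on their side of the threshold, 11 passed it newly and 36 lost it. Among the counts, 152 stayed within 1.5 times the reported value and 26 did not. The numbers did not pair the genotypes within a tissue (correlations of -0.0912 to 0.214 in brainstem, -0.174 to 0.142 in cerebellum and -0.299 to 0.0382 in liver). The replicate block gave 1 member called in liver (Kdm2b, adjusted p = 4.75e-04, limma; 0.0622% of the array) and 0 member pairs in liver, and A930024E05Rik (adjusted p = 0.230 in cerebellum and 0.0685 in the brain average) and Kmt5a (adjusted p = 0.0779) were not called under it. With each tissue fitted alone, 0 members and 0 member pairs were called in liver and 1 member pair in cerebellum. The share of all pairs called in that cerebellum fit is not given here. Array weights gave 3 members called in brainstem (0.0555% of the array) and 11 in the brain average (0.206%), and the nested F test 1 in brainstem, Adam1a (0.0377%). Leaving out WT liver replicates 1 and 3 together, an alternative chosen after seeing the data, gave 5 members in liver (1.42% of the array).

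With 1 array left out, the members called ranged over 1 to 3 in cerebellum (1 without CAG42 cerebellum replicate 1 or WT cerebellum replicate 3), 0 to 1 in brainstem (1, Ccdc62, without WT brainstem replicate 4), 1 to 18 in liver (18 without WT liver replicate 1, and 1 without CAG42 liver replicate 2 or 3 or WT liver replicate 3 or 4), 3 to 6 in the brain average (3 without CAG42 brainstem replicate 2 or WT cerebellum replicate 1 or 4) and 1 to 6 for brain average minus liver (6 without WT liver replicate 1, and 2 without CAG42 cerebellum replicate 4 or CAG42 liver replicate 4), and the member pairs called in liver over 0 to 3 (0 without CAG42 liver replicate 2 or 4 or WT liver replicate 4). Over the same fits, the share of the array called ranged over 0.02% to 0.0422% in cerebellum, 0.0133% to 0.0244% in brainstem, 0.0777% to 6.39% in liver, 0.0488% to 0.107% in the brain average and 0.00888% to 1% for brain average minus liver, with both highest liver values without WT liver replicate 1. In liver, 9 to 460 of all 11802 probe set pairs were called over these fits. The 460 pairs and the 3 member pairs came without WT liver replicate 1. The cause was not tested. In 23 of the 104 probe sets every group mean was under 5, near the bottom of the scale.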
